A study of Macaca mulatta with 7 samples.

Results

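RIMS1 and 3 further genes of active zone scaffolds, RIMS2, BSN and PCLO, were followed through the total RNA of rhesus macaque sperm, 4 genes of the 18284 that the deposited files name. RIMS1 was chosen because it is among the most abundant transcripts of these libraries, and the other 3 because their proteins work at the same structure. The abundance of RIMS1 is therefore a description and was not tested, whereas its comparison between the groups did not enter the choice. All 4 genes had counts in all 7 libraries and all 4 were tested.

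The libraries came from 4 Control animals, aged 5.72 to 5.92 years, and 3 Maltreated animals, aged 5.67 to 5.78 years, with 1 library for each. The title of the series asks what early life stress leaves behind in germline RNA, and the labels do not say what the maltreatment consisted of. The sperm cells had been separated on a PureSperm 40/80 density gradient and their RNA taken up in TRIzol. Nothing in the labels ties a Control to a Maltreated animal. Values listed by library are in the order Control 1 to 4 and Maltreated 1 to 3.

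Neurons and secretory cells release vesicles at specialised patches of membrane, and at the synapse this patch is the active zone. RIM proteins, encoded by RIMS1 and RIMS2, bind the vesicle protein RAB3, recruit the priming factor UNC13 and hold calcium channels next to docked vesicles. Bassoon (BSN) and Piccolo (PCLO) are very large scaffolds that tether vesicles and organise the cytoskeleton around the release site. Sperm carry 1 large secretory vesicle, the acrosome, whose release at the egg uses RAB3, RIM and SNARE proteins related to those of neurons.

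Sense counts, those on the annotated strand of a gene, ran from 5316383 in Control 4 to 30715268 in Maltreated 1, and antisense counts made up 6.15 to 12.1% of a library. The 10 markers of sperm summed to 45075 to 96828 CPM, a count relative to the sense total of its library. The 11 neuronal markers summed to 11.4 to 76.6 CPM, and 8 of them were at 0 in at least 1 library. Among the 11, MAP2, SYT1 and NEFM were highest in Control 4, with 38.0, 19.9 and 10.2 CPM. The other neuronal markers were highest in Maltreated 1 or Maltreated 3, and TUBB3, SYN1 and SYP were at 0 in Control 4. The 3 neuroendocrine markers summed to 0 to 34.2 CPM, the 8 leukocyte markers to 677 in Control 4, 987 in Maltreated 3 and 5.69 to 42.4 elsewhere, and the 6 markers of epithelium and accessory glands to 4.72 to 287. None of these markers was at 0 in every library. In bulk RNA fewer cells of a type and less RNA per cell cannot be told apart.

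RIMS1 was the third most abundant gene in 6 libraries and the second in Maltreated 1. Its sense level, in CPM scaled with TMM factors, was 28446, 19604, 26849 and 17018 in the Control libraries and 31797, 22582 and 20298 in the Maltreated libraries. The highest library was thus a Maltreated one and the lowest a Control one, with the rest of the groups overlapping. Per kilobase of listed exon, where overlapping entries count in both level and length, RIMS1 had a mean of 2316 CPM and the 12th highest level of 18282 genes. Without its last entry, exon 36, which repeats exon 35, the mean was 3123 CPM. RIMS2, its closest relative here, had 36.4 CPM per kilobase, PCLO 1.33 and BSN 0.302. In every library the order per kilobase was RIMS1, RIMS2, PCLO, BSN except in Maltreated 2, where BSN (0.590) stood above PCLO (0.314). Per kilobase RIMS1 without exon 36 exceeded RIMS2, which has no overlapping exons, by 71.3 to 79.7 times in the Control libraries. In the Maltreated libraries it did so by 105.7, 137 and 77.5 times. These ratios are over all exons of each gene and do not hold for each exon.

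This abundance lay on a small stretch of the gene. RIMS1 spans chr6:69854716-70347427 on the plus strand, in the coordinates of the deposited files, with 36 exon entries when each is taken once. The last 2 entries, exons 35 and 36, are alternative ends of 1 exon with the same start and the same counts. The neighbouring exons 27, 28 and 29, numbered in the direction of transcription, held 92.6 to 94.1% of the sense count in the 7 libraries. They measure 112, 166 and 235 bases, 513 together, or 6.73% of the 7619 distinct exon bases of the gene. Exon 27 is at chr6:70252997-70253108, exon 28 at chr6:70259220-70259385 and exon 29 at chr6:70284455-70284689. Their summed length is divisible by 3 and would make 171 codons if read through, but no sequence was used and translation was not tested.

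**Figure D1:**
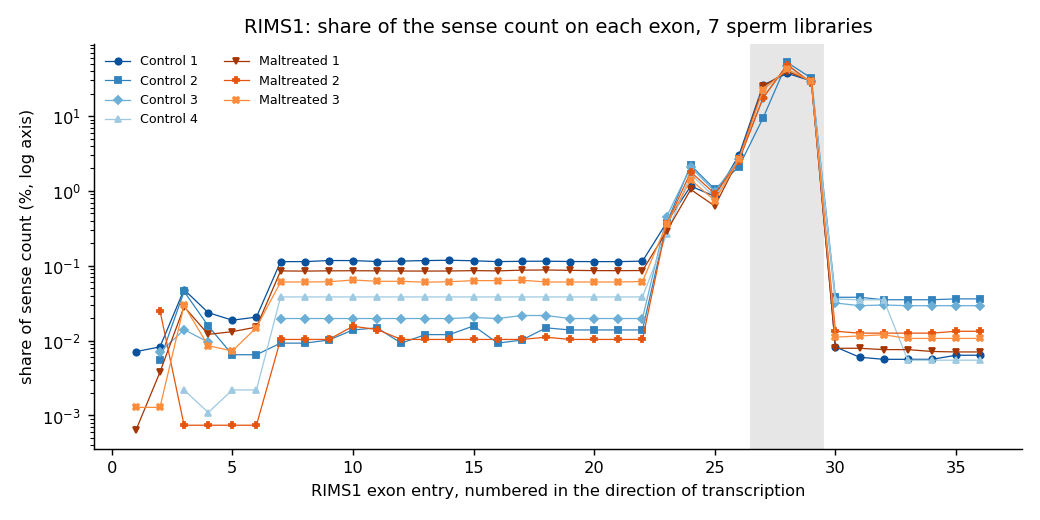
Share of the RIMS1 sense count on each of the 36 exon entries (percent, log axis) against the exon's number in the direction of transcription, 1 line for each of the 7 libraries, exons without counts left out. All lines peak on the shaded exons 27 to 29 (92.6 to 94.1% together), run flat over exons 7 to 22 and drop after exon 29.

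Exon 28 was the highest exon in 7 of 7 libraries. It held 37.2, 52.2, 47.3 and 40.8% of the sense count in the Control libraries and 39.2, 48.9 and 42.2% in the Maltreated libraries. Exon 29 varied least of the 3, with 28.3 to 32.1% in Control and 27.7 to 29.7% in Maltreated libraries. Exon 27 varied most, with 25.9, 9.46, 17.6 and 23.7% in the Control libraries and 24.96, 17.5 and 22.3% in the Maltreated libraries. The low value of exon 27 in Control 2 went with the highest shares of exons 28 and 29. The ratio of exon 27 to exon 28 was accordingly 0.181 in Control 2 and 0.359 to 0.696 in the other libraries. Together the 3 exons differed far less, at 93.3 ± 0.558% (SD, n = 4) in the Control group and 93.9 ± 0.201% (SD, n = 3) in the Maltreated group.

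**Figure D2:**
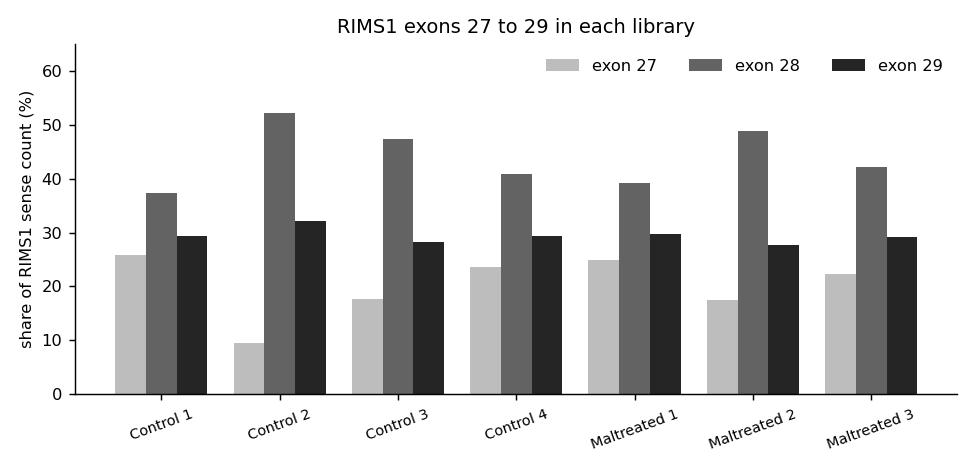
Share of the RIMS1 sense count (percent) on exons 27, 28 and 29 in each library, 1 bar per exon. Exon 28 is the tallest bar in all 7 libraries, and exon 27 is lowest in Control 2 at 9.46%.

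The boundary on the downstream side was sharp. Exon 29 carried 78437, 34677, 44461 and 26764 counts in the Control libraries and 281522, 37384 and 68152 in the Maltreated libraries. Exon 30, which lies 28524 bases further on, carried 22, 41, 50 and 33 counts in the Control libraries and 75, 18 and 26 in the Maltreated libraries. Exon 29 thus exceeded it 811 to 3754 times. Exons 30 to 35, which with the overlapping exon 36 end the gene, held 0.0375 to 0.218% of the count. Per kilobase the 3 leading exons stood 2753 to 15770 times above exons 30 to 35.

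The upstream side fell in steps. Exons 23 to 26 held 4.66 to 6.17% of the count, and per kilobase the leading exons stood 13.2 to 17.6 times above them. Exons 7 to 22, 16 exons over 33234 bases, held 1.84, 0.196, 0.320 and 0.614% in the Control libraries and 1.38, 0.176 and 0.988% in the Maltreated libraries. Within a library these 16 exons carried nearly the same count. Each of them had 35 counts in Control 4, and they had 303 to 316 in Control 1, 10 to 17 in Control 2 and 31 to 34 in Control 3. In Maltreated 1 to 3 they had 806 to 834, 14 to 21 and 141 to 151 counts. Their median count relative to exon 28 was highest in Control 1 (0.309%), Maltreated 1 (0.219%) and Maltreated 3 (0.145%), which are also the 3 deepest libraries, and 0.0212 to 0.0940% in the others. The part of depth in this order was not tested. Exons 1 to 6 held 0.00767 to 0.126%.

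Counts in these files are not independent between exons. A read that overlaps several exons is counted on each, so the level of RIMS1 summed over exons can hold 1 read more than once. Exon 28 alone, on which a read is counted once, stood at 10593, 10211, 12696 and 6936 CPM in the Control libraries and 12466, 11029 and 8568 in the Maltreated libraries. The covered fraction has a related limit: in Maltreated 2 the 865 bases of RIMS1 exon 6 were listed as covered in full with 1 count. Whether a count stands for an alignment that only spans an exon was not tested, and reads outside annotated exons are not analysed here. RIMS1 as a whole was listed as covered to 100, 98.4, 85.8 and 97.7% in the Control libraries and 100, 96.6 and 99.7% in the Maltreated libraries, so nearly all of its exon bases were listed as covered while 513 of them held nearly all counts.

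Such concentration was uncommon but not unique among genes. For 3418 genes with at least 10 exons and 1000 counts, the median share of the 3 leading exons was 57.5%, with quartiles of 44.9 and 71.0%. RIMS1, at a mean of 93.6%, lay above 97.6% of them, and 80 genes were higher. For a single leading exon its mean of 44.0% lay above 90.1% of the genes. Among the 10 most abundant genes, UBXN7 had 92.9% on 3 exons, CEP112 82.7% and GON4L 81.1%, while MUC16 had 17.2%, ANKRD36B 17.9% and ANKRD36 11.1%. Among the partner genes highest per kilobase in their lists, named below, SYN3 had 93.9% and NAPA 93.2% on 3 exons. The others had 29.8 to 71.5%. The value for RIMS1 is the mean over the 7 libraries, and its exons were picked on the same counts.

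Antisense counts at RIMS1, 904 to 9848 a library, were few beside its sense counts and had their own distribution. The antisense share of the gene's counts was 0.855, 0.830, 1.07 and 1.09% in the Control libraries and 1.03, 1.09 and 0.970% in the Maltreated libraries. In each library this was below the antisense share of the whole library. Of 19544 antisense counts, 18667 lay on exons 27 to 29, 807 on exons 23 to 26, 54 on exons 30 to 36 (27 on each of the overlapping exons 35 and 36), 14 on exons 1 to 6 and 2 on exons 7 to 22. Within the leading exons the antisense share rose in the direction of transcription in 7 of 7 libraries. It was 0.00979 to 0.0465% on exon 27, 0.341 to 1.16% on exon 28 and 1.71 to 2.56% on exon 29. The rise did not extend upstream to exon 25, which had 221 antisense and 14612 sense counts in all. Exon 27 had 104 antisense and 441254 sense counts. In Control 4 exon 25 had no antisense counts. Exon 29, second in sense counts, held 56.2 to 72.6% of the antisense count.

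**Figure D3:**
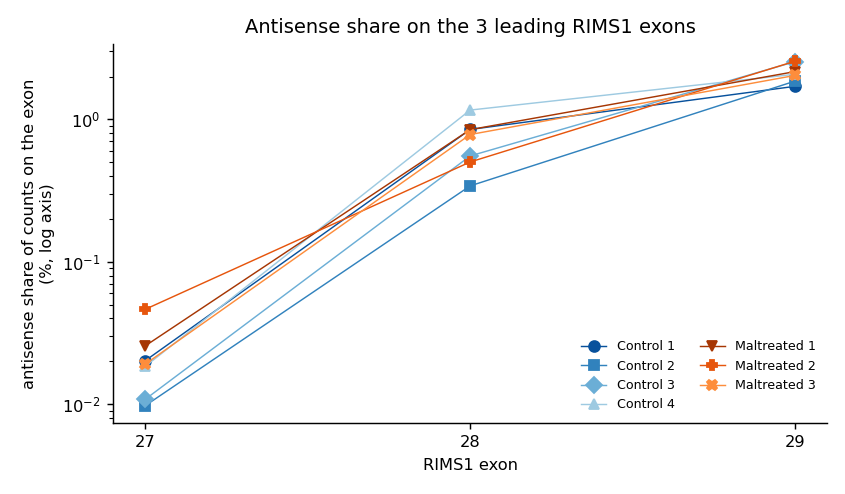
Antisense counts as a share of all counts on RIMS1 exons 27, 28 and 29 (percent, log axis), 1 line per library. Every line rises from exon 27 (0.00979 to 0.0465%) to exon 29 (1.71 to 2.56%).

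RIMS2, which encodes the second long RIM protein, also had its counts unevenly spread, with the largest part on 1 short exon, exon 2. It spans chr8:101999767-102796172 on the plus strand with 26 exons. Its level was 494, 337, 489 and 279 CPM in the Control libraries and 441, 222 and 354 in the Maltreated libraries, so the groups overlapped. These levels hold exons that the files list more than once: 4632 counts in Control 1 were 3201 with each exon taken once. Exon 2, the 210 bases at chr8:102229466-102229675, was the highest exon in 7 of 7 libraries. Its share was 50.02, 67.5, 52.6 and 64.7% in the Control libraries and 39.8, 54.5 and 52.0% in the Maltreated libraries. The next exons were exon 5, 925 bases at chr8:102420796-102421720, with 2.75 to 21.3%, and exon 11, 112 bases at chr8:102457895-102458006, with 0.0878 to 10.5%. The 3 together held 66.6 to 77.3%. With a mean of 54.4% on its leading exon RIMS2 lay above 95.9% of the 3418 genes, and with 69.0% on 3 exons above 72.1%.

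By exon length, the leading exons of RIMS1 and RIMS2 lay at different places. Of the exons of RIMS1, 12 had a RIMS2 exon of the same length in the same order, namely exons 7, 9 to 15, 17 and 32 to 34. Exons 27 to 29 of RIMS1 lie between these matched exons, whereas exon 2 of RIMS2 lies before the first of its matched exons, exon 6. The length of RIMS1 exon 27, 112 bases, was found among RIMS2 exons, in exons 11 and 23, whereas those of exons 28 and 29, 166 and 235 bases, were not. Summed over the 7 libraries, RIMS1 exons 7, 9 to 15 and 17 had 1345 to 1381 counts each and their RIMS2 matches 10 to 1365. RIMS1 exons 32 to 34 had 214 to 249 counts each and their matches 22 to 465. Length is a crude guide to related exons, and no sequence was compared.

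Exon 2 of RIMS2 was the one leading exon, of the 3 that could be tested, on which the groups did not overlap, and it is described because of that, after the values were seen. It stood at 170.8, 177, 179.7 and 137 CPM in the Control libraries and at 114, 86.1 and 130.1 CPM in the Maltreated libraries. Each Maltreated library was below each Control library, at a mean of 110.2 ± 22.3 (SD, n = 3) against 166 ± 19.7 (SD, n = 4). Of 7239 genes tested on their leading exon, 1.82% were lower in Maltreated sperm without overlap. This share counts only the lower direction, whereas exon 2 was picked for groups that did not overlap in either direction. In edgeR's quasi-likelihood test on leading exons the log2 fold change was -0.48 ± 0.30 (SE), with a Benjamini-Hochberg adjusted p of 0.999. As CPM of all sense counts, without TMM factors, the groups overlapped, since Maltreated 3 was at 140.2 and Control 4 at 138.6. Outside exon 2 the level was 123 ± 50.1 CPM (SD, n = 4) in the Control group and 122 ± 50.7 (SD, n = 3) in the Maltreated group.

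PCLO and BSN were far lower and their counts moved from exon to exon between libraries. PCLO, at chr7:110739179-111143916 on the plus strand with 26 exons, had 54.3, 66.0, 24.9 and 83.3 CPM in the Control libraries and 39.1, 13.9 and 127 in the Maltreated libraries. Maltreated 3 and Control 4, the 2 libraries with the most leukocyte RNA, were also the 2 highest for PCLO, and the part of leukocytes in this was not tested. The files repeat PCLO exons, and its 509 counts in Control 1 were 259 with each exon taken once. The highest exon was exon 3, 13, 10, 6, 3, 2 and 10 in the libraries in the order given above, 5 different exons. By mean share its leading exons were exon 3 at chr7:110766063-110767462 with 7.82 to 26.2%, exon 2 at chr7:110745634-110747217 with 0 to 59.5% and exon 10 at chr7:111018923-111019047 with 0 to 32.9%. One exon had a count in every library and 2 had none in any. The mean of 17.0% on 1 exon was below the lower quartile of the 3418 genes, 18.5%.

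BSN, at chr3:105421430-105536155 on the plus strand with 12 exons, had 27, 26, 46 and 9 sense counts in the Control libraries and 157, 56 and 21 in the Maltreated libraries. Its level was 1.68 to 7.86 CPM in Control and 1.82 to 9.37 in Maltreated libraries. The 56 counts of Maltreated 2 all lay on exon 2 at chr3:105488681-105489088, and the 9 of Control 4 on exon 7 at chr3:105527117-105527945. In 4 other libraries the highest exon was exon 5 at chr3:105515490-105522151, the longest with 6662 bases, and in Control 2 it was exon 2. With 9 to 157 counts a library these places carry large counting error. Control 3 was the one library in which all 12 exons had a count and BSN was listed as covered to 100%, yet 10 of these exons, 9114 bases, had 1 or 2 counts each. Control 3 also had 70 antisense counts against 46 sense counts, and the other libraries 0 to 13 antisense counts. The 70 in Control 3 were 7 on each of exons 3 to 12. Whether the same reads were counted on each of these exons was not tested.

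**Figure D4:**
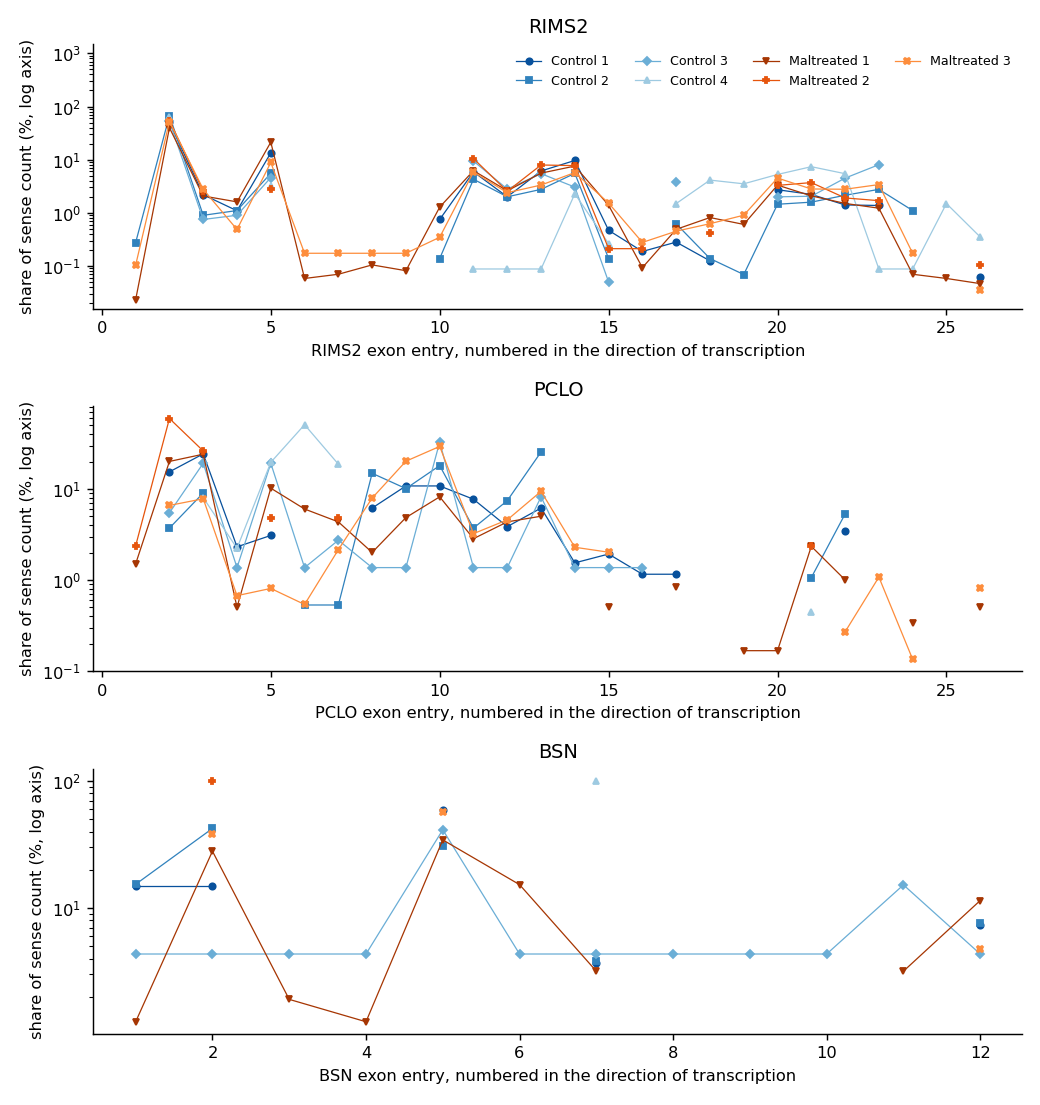
Share of the sense count on each exon of RIMS2, PCLO and BSN (percent, log axis) against the exon's number in the direction of transcription, 1 line per library, exons without counts left out. Exon 2 of RIMS2 is the highest in all 7 libraries, whereas the highest exon of PCLO and BSN changes between libraries.

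None of the 4 genes differed between the groups beyond the spread of the animals. RIMS1 had 22979 ± 5532 CPM (SD, n = 4) in the Control group and 24892 ± 6088 (SD, n = 3) in the Maltreated group, a log2 fold change of 0.12 ± 0.25 (SE). RIMS2 had 399.7 ± 108 (SD, n = 4) against 339 ± 110.4 (SD, n = 3), a change of -0.24 ± 0.32. PCLO had 57.1 ± 24.5 (SD, n = 4) against 60.1 ± 59.6 (SD, n = 3), a change of 0.07 ± 0.68. BSN had 4.28 ± 2.69 (SD, n = 4) against 5.48 ± 3.78 (SD, n = 3), a change of 0.35 ± 1.03. The adjusted p was 0.999 for each (edgeR, Benjamini-Hochberg over 10719 genes). Of these 10719 genes 0% were called, and the groups did not overlap in 3.59% of them and in 0 of the 4 scaffold genes. An unadjusted p under 0.05 was reached by 191 genes, none of them a scaffold gene (unadjusted p of 0.470 to 0.914), and DESeq2 called 3 genes.

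The sign of 3 of these changes turned when a single library was left out. That of PCLO was -1.11 without Maltreated 3 and -0.17 without Control 3. That of RIMS1 was -0.11 without Maltreated 1 and -0.02 without Control 4, and that of BSN was -0.29 without Maltreated 2. With Control 4 and Maltreated 3 both left out, the changes were 0.11 for RIMS1, -0.42 for RIMS2, -0.87 for PCLO and 0.49 for BSN. The common biological coefficient of variation of all tested genes was 0.858.

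**Figure D5:**
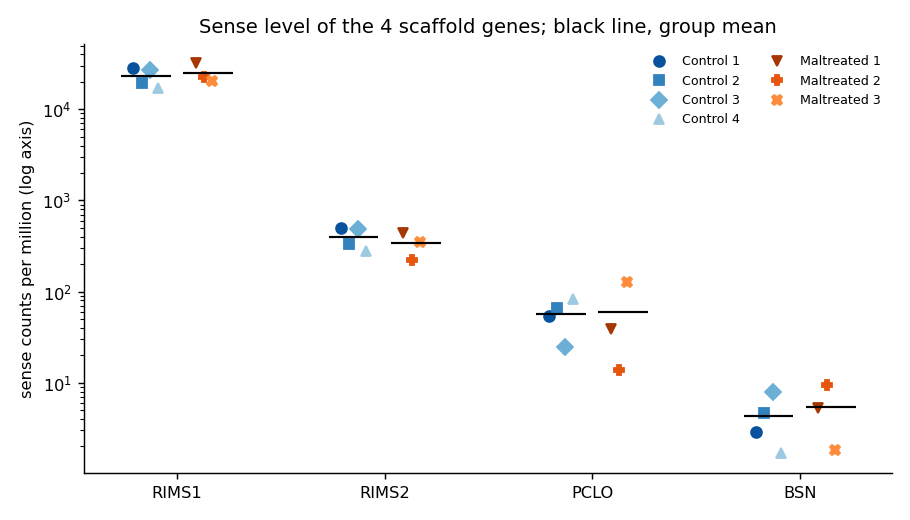
Sense level of the 4 scaffold genes in CPM (log axis), 1 point per library, with a black line at each group's mean. The groups overlap in all 4 genes, and RIMS1 lies between 17018 and 31797 CPM while BSN lies between 1.68 and 9.37.

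Antisense counts of RIMS1 and RIMS2 were sufficient for a test, those of PCLO and BSN were not. The log2 fold change was 0.38 ± 0.60 (SE) for RIMS1 and -1.11 ± 1.94 for RIMS2, and without Control 2, which held 57 of 167 antisense counts of RIMS2, the latter was 0.99. The adjusted p was 0.998 for both (edgeR, Benjamini-Hochberg), and 0% of 4382 genes were called, with 110 at an unadjusted p under 0.05. The share of the leading exon, the antisense share and the covered fraction were also compared between the groups for each of the 4 genes. In these 12 two-sided exact permutation tests over 35 splits p ran from 0.171 to 0.914, and the adjusted p was 0.914 in each. The smallest p that 4 against 3 libraries allow is 0.0571. The lowest p was that of BSN exon 2, whose share averaged 15.4 ± 19.0% (SD, n = 4) in the Control group and 55.4 ± 39.0% (SD, n = 3) in the Maltreated group (exact permutation p = 0.171), a gap of 40.0 percentage points. Without Control 2 the leading exon of BSN was exon 5 instead, with a gap of -3.01.

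Partners of the scaffolds were taken from 4 lists covering the active zone, membrane fusion, vesicle proteins and calcium channels, and none of their genes was called. In the active zone and priming list 22 of 26 genes were tested, 10 with a higher and 12 with a lower fitted level in Maltreated sperm, at a median log2 fold change of -0.05. The highest per kilobase were PPFIA1, a liprin scaffold, at 172 CPM, the priming factor UNC13B at 89.7 and ERC1, which binds RIM, at 60.3. RIMS1 stood 13.5, 25.8 and 38.4 times above them per kilobase of listed exon. The short RIM genes were at the other end, with RIMS3 at 0 to 5.62 CPM and RIMS4 at 0 to 4.44. In the fusion machinery list 24 of 38 were tested, 11 higher and 13 lower, at a median of -0.14. Its highest members per kilobase were NAPA at 60.3 CPM and NSF at 44.9, which take SNARE complexes apart, and the syntaxin STX2 at 55.4.

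Among vesicle proteins 13 of 19 were tested, 5 higher and 8 lower, at a median of -0.05. The synapsins SYN3 and SYN2 had 34.1 and 12.8 CPM per kilobase and RAB3GAP1, a regulator of RAB3, had 9.30. RAB3A, the vesicle protein that RIM binds in neurons, had 0 to 1.57 CPM and too few counts for a test. Among calcium channel subunits 11 of 13 were tested, 6 higher and 5 lower, at a median of 0.06. CACNA2D3 and CACNA2D1, auxiliary subunits, had 12.3 and 3.31 CPM per kilobase and CACNA1A, a pore-forming subunit, had 6.19. Over all tested genes the median was -0.02. The medians of the lists changed sign between alternatives, from -0.27 to 0.08 for fusion machinery and from -0.24 to 0.17 for vesicle proteins. For the active zone they ran from -0.21 to 0.11 and for calcium channels from -0.10 to 0.27.

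At an unadjusted p under 0.05 stood 2 list genes, and in both Control 4 was far above the rest. STXBP2, a partner of syntaxin used in the granule release of leukocytes, had 493 CPM in Control 4 and 4.01 to 22.7 in the other libraries, with a log2 fold change of -3.61 ± 1.63 (SE). TSPOAP1, a RIM-binding protein listed as BZRAP1, had 132 CPM in Control 4 and 1.34 to 5.03 elsewhere, with a log2 fold change of -3.53. Both had an adjusted p of 0.999 (edgeR, Benjamini-Hochberg). Without Control 4 the changes were 0.44 for STXBP2 and -0.36 for BZRAP1. Control 4 had 677 CPM of leukocyte markers and the highest sums of neuronal (76.6) and neuroendocrine markers (34.2). Of the neuronal markers, only MAP2, SYT1 and NEFM were highest in Control 4. Maltreated 3, with more leukocyte RNA (987 CPM), had 22.7 CPM of STXBP2 and 5.03 of BZRAP1. The part of these other cell types in the levels was not tested.

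The genes whose levels followed RIMS1 most closely over the 7 libraries were found by the root mean square difference of log2(CPM + 0.5), each gene centred on its own mean. They were WHSC1, a histone methyltransferase gene, with a difference of 0.07, OXCT1, an enzyme of ketone use, with 0.07, and RBM27, DZIP3 and ZNF532 with 0.12 to 0.13. The median over all tested genes was 0.96. A gene of constant level would have 0.30, and 3.65% of tested genes were closer to RIMS1 than that. RIMS2 was near this value with 0.29, with 3.27% of tested genes closer, and BSN with 0.71 and PCLO with 1.16 were above it. The measure also grows with a gene's own spread, so a value near or above 0.30 does not tell whether a gene varies with RIMS1. WHSC1 itself ranged from 307 to 555 CPM and, like RIMS1, was lowest in Control 4 and highest in Maltreated 1.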

How the data were processed

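Total RNA of sperm cells from 7 rhesus macaques was analysed from the deposited files, grouped by the titles. The tools named are STAR, featureCounts and bedtools, per the submitters' processing notes. The build of the genome was not given in sources used here. For each library the authors deposited a forward and a reverse file with the read count on each annotated exon, the covered bases and the fraction of the exon covered. A table of the series holds, as deposited by the authors, the sense and antisense count of each gene and its covered fraction. Its counts equalled the sums over exon entries. Of 233648 exon entries, 43070 repeat an exon of the same gene; gene levels use the deposited sums, and exon shares and levels per kilobase use each exon once, with overlapping exons kept unless stated. RTN3 and ZC3HAV1, listed on both strands, were left out, which leaves 18282 genes. Levels are CPM.

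The test on counts was that of edgeR 4.0.16 under R 4.3.3 (TMM factors, filterByExpr with a minimum count of 10 and a minimum total of 15, quasi-likelihood F test on the group, 5 residual degrees of freedom) and adjusted by Benjamini-Hochberg at 0.05. The scripts were tested on simulated data. Shares were compared by two-sided exact permutation in Python 3.11.15 with scipy 1.17.1. Alternatives were DESeq2 1.42.0 size factors and Wald test, total counts, no filter, a replicate block, unique exons, both strands summed, genes without their leading exon and leaving out each library. Leading exons alone, RIMS1 without exon 36 and leaving out Control 4 and Maltreated 3 together were chosen after seeing the data. Named are the 4 genes, their 3 leading exons, per list the 3 tested genes highest per kilobase, and the 5 genes most like RIMS1. RIMS3, RIMS4, RAB3A, STXBP2, TSPOAP1, MAP2, SYT1, NEFM, TUBB3, SYN1 and SYP were named after their values were seen. The 4 genes and all lists were chosen with earlier results of these data known. Depth was 5316383 to 30715268 sense counts a library, so p-values rest on the spread between 7 animals, 1 library each. No sequence is shown, because none was used.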

Additional observations from a re-analysis of the deposited data

Results flagged for a closer look

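The Control libraries were screened for 1 library far from the other 3 in 20 measures of the 4 genes, and 3 such values were found, where chance gives about 5% of groups. RIMS1 was listed as covered to 85.8% in Control 3 and to 97.7 to 100% in the other Control libraries. BSN was listed as covered to 100% in Control 3 and to 0.618 to 5.79% in the others, with 46 sense counts. The ratio of RIMS1 exon 29 to exon 30 was 3565 in Control 1 and 811 to 889 in the other Control libraries, with 22 counts on exon 30.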

How the results depend on the processing

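Of 124 values under other settings, 111 kept their direction and side of the threshold, 10 changed sign and 3 counts moved. DESeq2 called 3 genes in sense and 16 in antisense counts, where edgeR called 0, and edgeR without a filter called 24 in antisense. With the replicate number as a block 0 genes were called in sense (275 at an unadjusted p under 0.05) and 0 in antisense, and the log2 fold change was -0.012 for RIMS1, -0.0017 for BSN, -0.18 for PCLO, -0.41 for RIMS2 and 0.10 for antisense RIMS2. The labels do not say that the numbers pair the samples. Deviations of same-numbered libraries correlated at 0.075, 0.0099 and -0.019, and those of differently numbered libraries at -0.11 to 0.093. So few values cannot decide whether samples are paired. The log2 fold change of BSN was -0.43 with both strands and -1.19 without its leading exon, and that of PCLO -0.87 without the 2 leukocyte-rich libraries. The difference in share was 0.535 percentage points for the 3 leading RIMS1 exons, -2.91 for the PCLO exon with the highest summed count, and 0.140 for the PCLO antisense share from deposited sums.

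Leaving out 1 library changed the sign of 21 of 168 values and made no call. Log2 fold changes ran from -0.11 to 0.24 for RIMS1, -0.29 to 0.82 for BSN, -1.11 to 0.53 for PCLO and -1.81 to 0.99 for antisense RIMS2. Differences in leading exon share ran from -3.66 to 1.64 percentage points for RIMS1 and, with the leading exon chosen anew, -3.01 to 53.7 for BSN. Those in antisense share ran from -0.643 to 0.0776 for RIMS2 and -3.84 to 0.997 for PCLO, and those in covered fraction from -5.38 to 11.5 for RIMS2, -26.0 to 7.16 for BSN and -12.5 to 10.2 for PCLO. The cause was not tested. At 9 to 157 counts a library, the exon shares of BSN carry large counting error.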
